A study of Mus musculus with 4 samples.

Results

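Apoe, Clu, Pltp and Picalm are 4 of the 383 genes that were counted in place by MERFISH, an imaging method that reads barcoded probes on single mRNA molecules, in coronal sections of the mouse striatum. They were taken as a set by name, as lipid carriers and genes tied to Alzheimer risk. The paper built the panel from its own single-cell RNA sequencing, with cell class markers, genes changed with age, and astrocyte and endothelial subtype markers. Levels and shares over all genes given below are relative to this chosen panel. Apoe and Clu encode secreted apolipoproteins, apolipoprotein E and clusterin, which carry cholesterol and other lipids between cells. In the brain astrocytes are the main known source of both, and microglia are known to raise Apoe when they become activated. Pltp encodes phospholipid transfer protein, which moves phospholipids between lipoprotein particles and is known from brain vessels and the choroid plexus. Picalm encodes an adaptor of clathrin-coated vesicles, through which receptors and their lipoprotein cargo are taken into cells. Human APOE, CLU and PICALM lie at loci linked to the risk of late-onset Alzheimer disease.

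The study compared young adult mice of 2 months with aged mice of 18 months, with 2 bilateral sections of 10 µm per age, each from a fresh-frozen brain. The mice were wild-type C57BL/6NTac, no transgene or treatment is given for either group, and age is the only difference the labels give. The sex of the sectioned mice is not given by section. The reporting summary of the study names males and females, used in alternating batches, so sex may differ between the sections. The methods call replicates biological, while the labels do not say which animal gave which section. The files identify genes by symbol only. In the GENCODE annotation of the GRCm38 build Apoe lies on chromosome 7 from 19696109 to 19699188 on the minus strand, and Picalm on the same chromosome from 90130213 to 90213465 on the plus strand. Clu lies on chromosome 14 from 65968483 to 65981547 on the plus strand, and Pltp on chromosome 2 from 164839518 to 164857711 on the minus strand. All are protein-coding genes with between 7 and 15 annotated transcript models, which one count per gene cannot tell apart.

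After filters, between 68011 and 74624 cells per section were kept, with no barcode shared between sections. The kept cells of the young sections held 36035355 and 31172121 transcripts and those of the aged sections 18765491 and 29004185, so that depth moved with age. The 4 genes made up 3.05% and 2.78% of the transcripts of the young sections, against 3.10% and 3.09% at the later age. Cell classes were rebuilt from marker genes without these 4 genes, and cells that carried markers of several lineages were left out as mixed, between 44.6% and 61.4% of the kept cells of a section and most in the deepest section. Class names carry "-like" for that reason. The 2 vascular clusters whose leading genes did not settle a name are called by those genes, Aldh1a2-Cd74-Mrc1 and Acta2-Myl9-Bmx. The mixed share was highest in OPC-like cells (oligodendrocyte precursors), at 87.8% and 83.6% in the young and 79.3% and 84.7% in the aged sections. From 269 to 377 OPC-like cells per section remained, so values of this class rest on a small part of it. Levels are given as transcripts of a gene per 10000 panel transcripts of the same cells, in the order young section 1, young section 2, aged section 1 and aged section 2, and means are given with the SD over these 4 sections. Levels of different genes were not compared, since probe number and efficiency differ between genes.

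Apoe was highest in astrocyte-like cells and in the ependymal lining of the ventricle. In astrocyte-like cells it stood at 575, 566, 521 and 571 transcripts per 10000, a mean of 558 ± 24.9 (SD, n = 4). Ependymal-like cells, which line the ventricle, held 619, 468, 440 and 423, so that the ranges of these classes overlapped. Only 74, 114, 132 and 111 ependymal-like cells per section remained, after 72.3%, 63.9%, 47.6% and 61.7% were left out as mixed. This is below the least number of cells set for tests by class, so values of ependymal-like cells rest on few cells. The order of the remaining classes was the Aldh1a2-Cd74-Mrc1 cluster (319 ± 23.8), OPC-like cells, which are oligodendrocyte precursors (196 ± 22.5), endothelial-like cells (185 ± 13.5) and mural-like cells (153 ± 15.6). The Acta2-Myl9-Bmx cluster (127 ± 24.4), neuroblast-like (119 ± 2.12), microglia-like (112 ± 28.3) and oligodendrocyte-like cells (110 ± 22.4) followed with overlapping ranges. Medium spiny neuron-like cells (44.1 ± 8.55) and other neuron-like cells (38.3 ± 5.34) were lowest in each of the 4 sections. The ratio of astrocyte-like to oligodendrocyte-like cells, taken within each section, had a mean of 5.27 ± 1.21. The Aldh1a2-Cd74-Mrc1 cluster also held the 6 astrocyte markers at a summed level of 1789 ± 175, and their part in its Apoe level was not tested.

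Clu shared the top of this order and fell off more steeply below it. Ependymal-like cells held 795, 689, 686 and 524 transcripts per 10000 and astrocyte-like cells 720, 545, 549 and 544. The ranges overlapped, and the highest value of both was in young section 1, where only 74 ependymal-like cells remained. All other classes lay far lower, from 136 ± 20.6 in neuroblast-like and 130 ± 14.4 in endothelial-like cells to 60.1 ± 12.3 in oligodendrocyte-like, 53.0 ± 6.85 in neuron-like and 33.2 ± 3.45 in medium spiny neuron-like cells. Within every section the astrocyte-like level was at least 3.49 times that of neuroblast-like cells, the next class down.

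Pltp marked the ventricle lining and the vessels. Ependymal-like cells held 490, 411, 352 and 374 transcripts per 10000 and endothelial-like cells 402, 323, 321 and 296. Their ranges overlapped, although the ependymal-like value, from 74 to 132 cells, was the higher one within each of the 4 sections. Endothelial-like cells stood at least 2.27 times above the Acta2-Myl9-Bmx cluster (136 ± 27.7) within every section. Mural-like cells held 131 ± 30.3 and the Aldh1a2-Cd74-Mrc1 cluster 90.2 ± 26.4. Below these came a gap of at least 3.22 times within every section, and neuroblast-like, astrocyte-like and all other classes had means between 2.54 and 12.5.

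Picalm was highest in oligodendrocyte-like cells, at 238, 228, 168 and 238 transcripts per 10000, and in microglia-like cells, at 226, 210, 180 and 243, and these ranges overlapped. Both classes stood above the Acta2-Myl9-Bmx cluster (121 ± 9.88) within every section, microglia-like cells at least 1.67 times. Mural-like (117 ± 15.3), endothelial-like (92.8 ± 12.1) and neuron-like cells (75.9 ± 8.23) lay between, and astrocyte-like (46.3 ± 4.62) and ependymal-like cells (39.3 ± 14.4) were lowest. Aged section 1, which had the fewest transcripts per cell, had the lowest Picalm level in each of these classes.

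Counted per 1000 µm³ of cell volume in place of per 10000 transcripts, ependymal-like cells led astrocyte-like cells for Apoe (21.7 ± 7.59 against 18.6 ± 4.75) and for Clu (29.8 ± 9.63 against 19.9 ± 7.36), again with overlapping ranges. Oligodendrocyte-like cells stayed first for Picalm at 7.13 ± 2.64, and ependymal-like cells for Pltp at 18.1 ± 6.03. With mixed cells kept, the ratio of astrocyte-like to oligodendrocyte-like Clu, as a mean over sections, was 5.67 in place of 10.2.

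**Figure D1:**
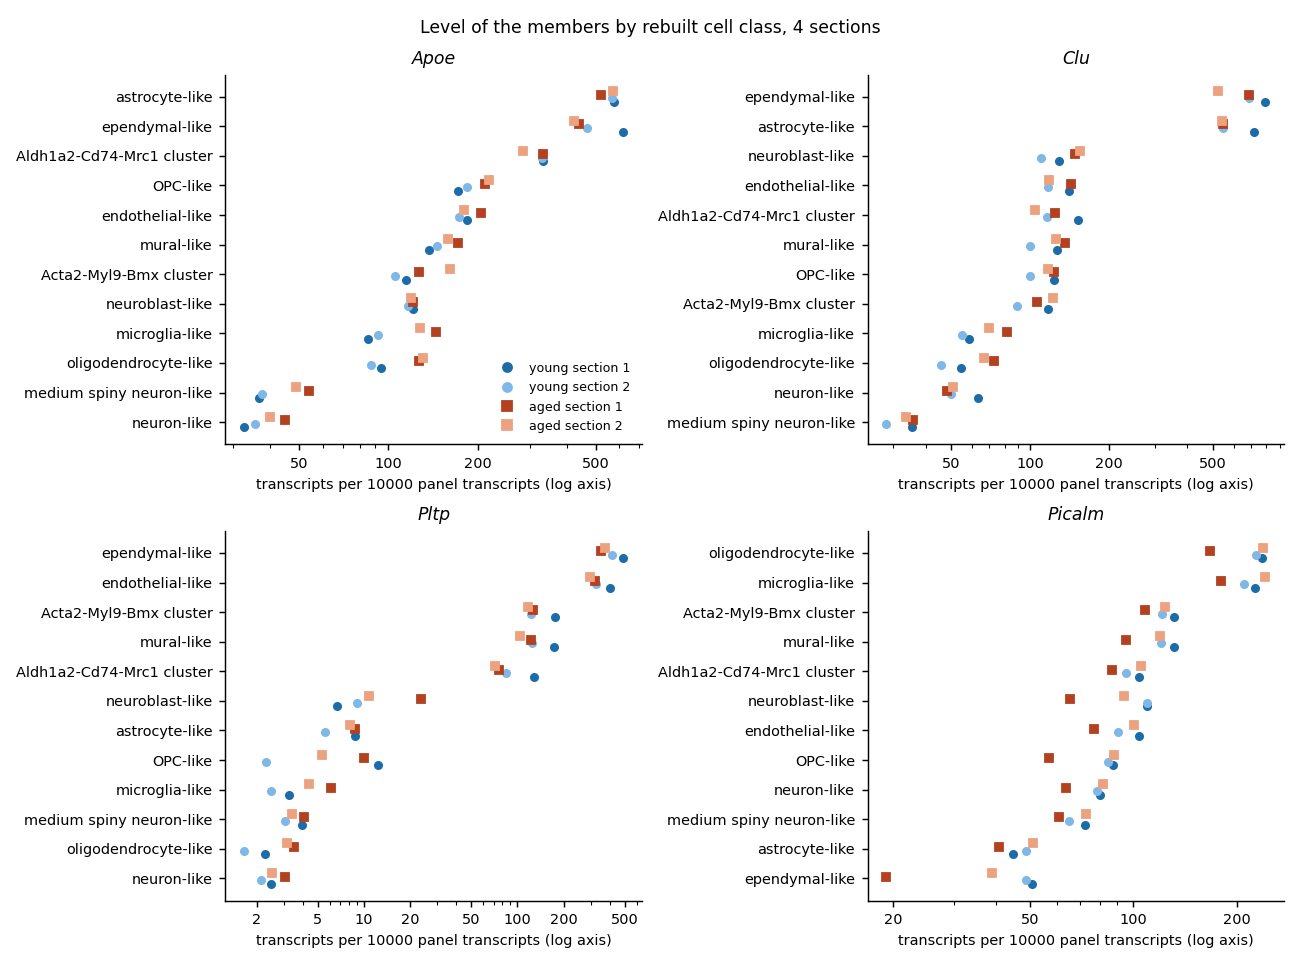
Transcripts of Apoe, Clu, Pltp and Picalm per 10000 panel transcripts (log axis) in each rebuilt cell class, with 1 point per section (circles young, squares aged) and classes ordered by their mean. Apoe and Clu lead in astrocyte-like and ependymal-like cells, Pltp in ependymal-like and endothelial-like cells, and Picalm in oligodendrocyte-like and microglia-like cells. Points of ependymal-like cells rest on 74 to 132 cells each.

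Across the means of 12 classes, the genes whose pattern was most like that of each member were found among 371 genes by Pearson's r of log2(transcripts per 10000 + 1). For Apoe these were Gja1 (r = 0.946), Prdx6 (0.903) and Aqp4 (0.894), of which Gja1, a gap junction protein, and Aqp4, a water channel, are astrocyte markers that also named the classes. For Clu they were Ezr (0.913), Prdx6 (0.908) and Gja1 (0.907), and Apoe and Clu themselves reached 0.899. Pltp was most like Ahnak (0.943), Rassf9 (0.928) and Slc16a4 (0.928). Picalm had no gene as close, with Il6 at 0.839, Gng11 at 0.740 and Trf, the transferrin of oligodendrocytes, at 0.735. These values describe 12 classes of the same 4 sections and carry no test.

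Over all kept cells, the 4 genes also differed in level between tissue zones. Zones were outlined from cell positions and class shares, and none of the 4 genes entered the outline. White matter was, however, outlined by oligodendrocyte-like cells, the leading class for Picalm. The ventricle wall was outlined by ependymal-like cells, among the leading classes for Apoe, Clu and Pltp. Levels over all cells of these zones are therefore not independent of the outline, and the part of class make-up in them was not tested. Apoe stood at 324, 243, 266 and 237 transcripts per 10000 in the ventricle wall and at 77.6, 80.9, 110 and 105 in the dorsal striatum. In the tissue margin it stood at 239 ± 35.7, where the summed level of 6 astrocyte markers was also the highest of all zones. Clu reached 402, 294, 317 and 259 in the ventricle wall and 196, 139, 223 and 206 in white matter, against 74.7 ± 6.08 in the striatum. Pltp stood at 141, 90.5, 115 and 97.4 in the ventricle wall and at 42.2 ± 6.08 in the tissue margin, and its means in the other zones lay between 16.5 and 19.1. Picalm was highest in white matter, at 177, 183, 123 and 182, which exceeded every other zone within each section, against 73.3 ± 6.59 in the striatum.

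**Figure D2:**
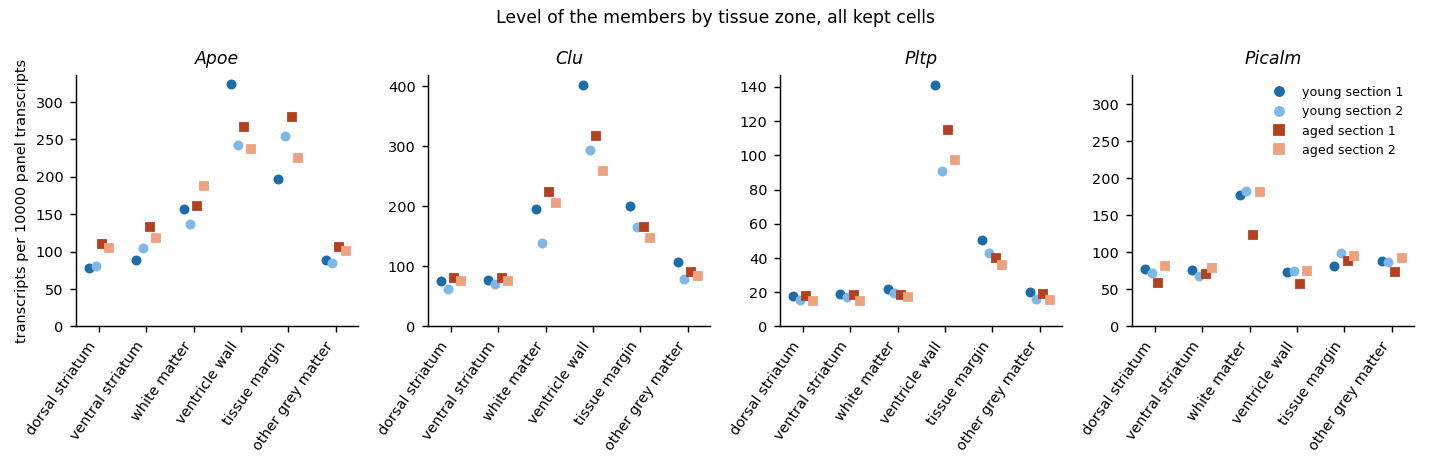
Transcripts of each member per 10000 panel transcripts over all kept cells of 6 tissue zones, with 1 point per section (circles young, squares aged) and axes from 0. Clu and Pltp peak in the ventricle wall, Apoe in the ventricle wall and the tissue margin, whose values overlap, and Picalm peaks in white matter. The ventricle wall was outlined by ependymal-like cells and white matter by oligodendrocyte-like cells.

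Whether a gene also differed between zones inside a class was tested with the section as a block, in 8 fits across all genes, with edgeR and Benjamini-Hochberg adjustment. Of 31 tests of a member in these fits 8 passed the threshold of 0.05, 7 with a higher level in white matter or ventral striatum and 1 with a lower level. The same fits called from 2.62% to 55.4% of all genes tested, so that calls were common in several of them. Picalm passed in none of its 8 tests, with log2 differences from -0.14 to 0.21.

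Clu in astrocyte-like cells was far higher in white matter than in the striatum. White matter astrocyte-like cells held 1282, 942, 1241 and 1179 transcripts of Clu per 10000 and striatal ones 760, 601, 577 and 601, so that all 4 white matter values lay above all 4 striatal ones. The log2 difference was 1.06 ± 0.12 (SE), or 2.08-fold (edgeR adjusted p = 2.2e-05), in a fit in which 55.4% of the 224 genes tested differed. Apoe in the same cells had a log2 difference of 0.01 ± 0.12 (adjusted p = 0.93), with white matter higher in 1 of 4 sections. In astrocyte-like cells of the other zones Clu had lower means, at 801 ± 90.03 in the ventricle wall, 539 ± 73.2 in the tissue margin and 516 ± 98.4 in grey matter outside the striatum. Clu also differed within the striatum, where the ventral part stood below the dorsal part in all 4 sections (log2 difference -0.29 ± 0.05, edgeR adjusted p = 0.0035), in a fit that called 16.4% of 195 genes.

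Oligodendrocyte-like cells showed the same direction at a much lower level of Clu. White matter held 54.3, 43.2, 83.6 and 75.5 transcripts per 10000 and the striatum 51.2, 35.2, 57.3 and 52.8, so that the ranges overlapped while white matter was higher within each section. After TMM scaling the log2 difference was 0.63 ± 0.14 (edgeR adjusted p = 0.0053), with 34% of 318 genes called in that fit, and it was 0.36 (adjusted p = 0.011) with plain totals. The 6 astrocyte markers together stood at 56.8 ± 7.91 in white matter and 58.9 ± 8.08 in striatal oligodendrocyte-like cells. In cells over 30 µm from an astrocyte-like cell the difference was 0.67 (adjusted p = 0.0026). In cells without any transcript of these 6 markers it was 0.30 (adjusted p = 0.16), and without aged section 2 it was 0.54 (adjusted p = 0.065).

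**Figure D3:**
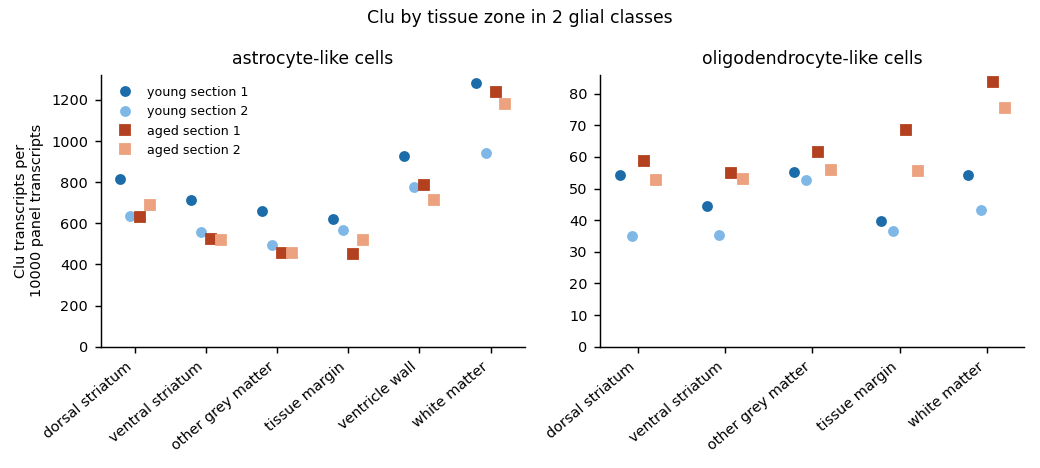
Clu transcripts per 10000 panel transcripts in astrocyte-like cells (left) and oligodendrocyte-like cells (right) of each tissue zone, with 1 point per section (circles young, squares aged) and axes from 0. Astrocyte-like cells of white matter lie between 942 and 1282, above the values of every other zone. Among oligodendrocyte-like cells both aged sections lie above both young ones in white matter, and also in the striatum taken as a whole. Over all oligodendrocyte-like cells this held for 127 of 379 genes tested.

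Pltp was higher in the ventral than in the dorsal striatum in neurons and astrocytes, while the endothelial-like cells, which hold most of it there per cell, showed no such difference. Dorsal was taken as the side that held most white matter outside the striatum, between 82.1% and 88.8% of it, since the files give no orientation. Medium spiny neuron-like cells, the projection neurons of the striatum, held 5.42, 4.47, 5.23 and 4.90 transcripts of Pltp per 10000 in the ventral part and 2.06, 1.32, 2.14 and 1.78 in the dorsal part, without overlap. The log2 difference was 1.37 ± 0.10, or 2.58-fold (edgeR adjusted p = 2.6e-08), in a fit that called 35.8% of 383 genes. Counts were low, and by section only 11.9% to 16.0% of the ventral and 4.87% to 7.19% of the dorsal cells held any Pltp transcript. Over 5 bands of equal height from ventral to dorsal the mean level ran from 5.94 and 5.42 through 2.92 to 1.67 and 1.70.

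In other neuron-like cells Pltp stood at 4.61, 4.25, 4.21 and 5.16 ventrally and 1.63, 1.55, 2.51 and 1.34 dorsally (log2 difference 1.36 ± 0.30, edgeR adjusted p = 0.0013, 31.8% of 242 genes called). In astrocyte-like cells it stood at 16.1, 6.99, 13.8 and 12.7 ventrally and 6.06, 3.12, 8.04 and 6.62 dorsally (log2 difference 1.04 ± 0.17, adjusted p = 0.0036). Endothelial-like cells held 343 ± 54.99 ventrally and 349 ± 57.6 dorsally, with a log2 difference of -0.07 ± 0.07 (adjusted p = 0.73) and 2.62% of 229 genes called. The 7 endothelial markers summed to 10.7 ± 0.69 in ventral and 10.7 ± 0.72 in dorsal medium spiny neuron-like cells, and to 13.7 ± 1.77 and 10.03 ± 2.08 in other neuron-like cells. The part of vessel transcripts in the values of the other neuron-like cells was not tested. With mixed cells kept, the log2 differences were 0.73 in medium spiny neuron-like, 0.80 in other neuron-like and 0.60 in astrocyte-like cells, and each passed the threshold. At a stricter zone outline the difference in astrocyte-like cells was 0.87 (adjusted p = 0.077).

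**Figure D4:**
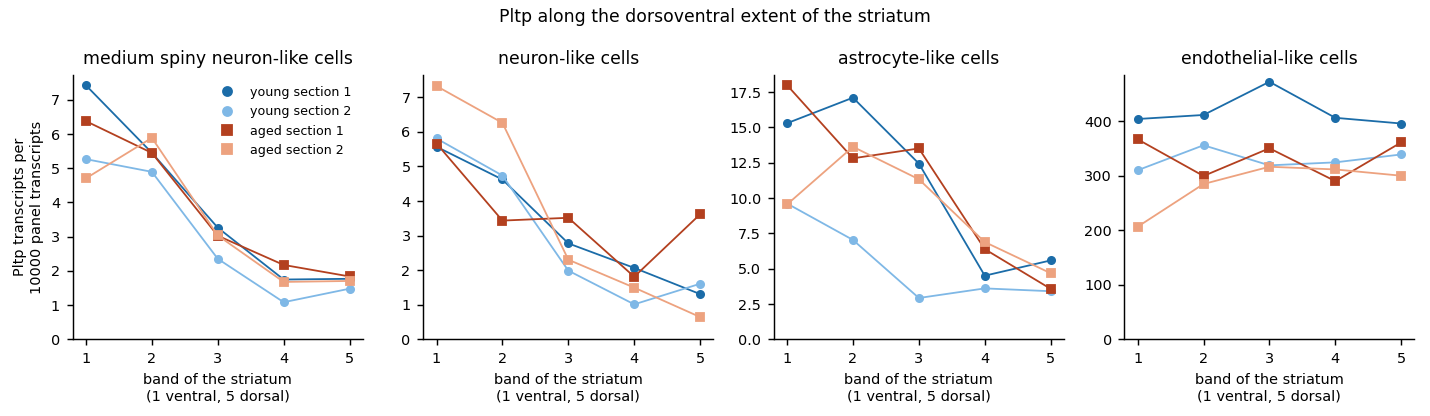
Pltp transcripts per 10000 panel transcripts in 5 bands of the striatum from ventral (1) to dorsal (5), in 4 classes, with 1 line per section (circles young, squares aged) and axes from 0 that differ between panels. In medium spiny neuron-like cells all 4 sections fall from between 4.71 and 7.42 in band 1 to between 1.48 and 1.84 in band 5, and endothelial-like cells show no such slope.

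Apoe was higher ventrally in 2 classes. Neuron-like cells outside the spiny class held 53.2, 59.6, 80.9 and 62.7 transcripts per 10000 in the ventral striatum and 30.3, 35.0, 52.9 and 50.6 in the dorsal striatum (log2 difference 0.58 ± 0.10, edgeR adjusted p = 0.00012). The ventral value was the higher one in all 4 sections, and the astrocyte markers in these cells were also higher there, at 57.0 ± 2.63 against 41.4 ± 4.85. In cells over 30 µm from an astrocyte-like cell the log2 difference was 0.52 (adjusted p = 0.0086).

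Oligodendrocyte-like cells held 111, 113, 194 and 184 transcripts of Apoe ventrally and 84.7, 77.9, 139 and 127 dorsally (log2 difference 0.41 ± 0.09, edgeR adjusted p = 0.0055, 7.46% of 201 genes called). The call was lost in cells over 30 µm from an astrocyte-like cell (0.43, adjusted p = 0.062), at the stricter outline (0.33, adjusted p = 0.13) and without aged section 2 (0.45, adjusted p = 0.085). Microglia-like cells showed a log2 difference of 0.30 ± 0.12 that did not pass (adjusted p = 0.17, 3.79% of 132 genes called), although the ventral value was the higher one in all 4 sections.

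From 2 to 18 months, no member passed the threshold in any of the 10 classes with at least 200 cells per section (0 of 40 tests by edgeR, 5 of them with an unadjusted p under 0.05), where 1.32% of the 3332 gene and class pairs passed. DESeq2 and limma voom also called 0 of the 40. Precision is limited by 2 sections per age, for which an exact permutation test cannot give a p below 0.333.

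Relative to the other panel transcripts, Apoe had a positive log2 change in 8 of 10 classes. In microglia-like cells it stood at 85.4 and 92.0 transcripts per 10000 at 2 months and 144 and 128 at 18 months (log2 change 0.44 ± 0.19, edgeR adjusted p = 0.16). In oligodendrocyte-like cells it stood at 94.1 and 87.2 against 127 and 131 (0.41 ± 0.18, adjusted p = 0.15), and in medium spiny neuron-like cells at 36.5 and 37.4 against 53.9 and 48.7 (0.49 ± 0.15, adjusted p = 0.68). Both aged values lay above both young ones in these and in 7 of 10 classes in all, while 23.1% of all gene and class pairs tested had both aged values on top. Astrocyte-like cells, where Apoe is highest, had a log2 change of -0.08 ± 0.09 (adjusted p = 0.89), with overlapping values. Per cell volume, the median log2 change of all genes lay between -0.47 and -0.19 by class. Before that median was taken off, the log2 change of Apoe was negative in 7 of 10 classes. It was 0.09 in microglia-like, -0.09 in oligodendrocyte-like and 0.03 in medium spiny neuron-like cells, whose values per 1000 µm³ overlapped between ages. Relative to the median of each class it was 0.40, 0.38 and 0.48 in these 3 classes and -0.08 in astrocyte-like cells.

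The 6 astrocyte markers, summed, were also higher in both aged sections in these classes. They stood at 77.0, 104, 154 and 129 transcripts per 10000 in microglia-like cells, at 67.7, 70.2, 95.8 and 78.3 in oligodendrocyte-like cells and at 31.6, 34.8, 44.7 and 38.5 in medium spiny neuron-like cells. In astrocyte-like cells themselves they stood at 2471 ± 30.2. Apoe outside astrocytes also varied with the distance to the nearest astrocyte-like cell. In microglia-like cells it had a mean of 143 ± 25.7 within 15 µm of one, 128 ± 38.9 from 15 to 30 µm and 102 ± 25.9 beyond 30 µm, and the astrocyte markers stood at 174, 125 and 103 in the same bins. In neuron-like cells the Apoe means were 54.3, 41.4 and 35.8. Beyond 30 µm microglia-like cells held 74.0, 85.5, 127 and 120 transcripts of Apoe and 77.2, 96.3, 137 and 104 of the astrocyte markers. Both aged values lay above both young ones for each, as for 114 of 315 genes tested over all microglia-like cells. No such share was taken for the cells beyond 30 µm. Within 15 µm Apoe stood at 132, 137, 180 and 122, and the ages overlapped. How much of the difference between ages came with transcripts of neighbouring astrocytes was not tested.

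Clu in astrocyte-like cells had a log2 change of -0.23 ± 0.13 (edgeR adjusted p = 0.77). That value rests on young section 1 (720, against 545 in young section 2), and without it the log2 change was 0.00071. In oligodendrocyte-like cells Clu stood at 54.6 and 45.6 in the young and 73.1 and 66.9 in the aged sections (0.39 ± 0.18, adjusted p = 0.18). In microglia-like cells its change was 0.24 ± 0.19 (adjusted p = 0.50).

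Pltp had a positive log2 change in 6 of 10 classes and a negative one in 4. It was 0.69 ± 0.42 in microglia-like (edgeR adjusted p = 0.37), 0.66 ± 0.32 in oligodendrocyte-like (adjusted p = 0.20) and 0.29 ± 0.29 in other neuron-like cells (adjusted p = 0.86), with aged means of 5.26, 3.33 and 2.78 transcripts per 10000. Both aged values were the higher ones in these 3, as for 114 of 315, 127 of 379 and 64 of 383 genes tested there. From 18 to 41 microglia-like cells per section held any Pltp transcript. The change was negative in the endothelial-like (-0.34 ± 0.16, edgeR adjusted p = 0.32) and mural-like cells (-0.37 ± 0.20, adjusted p = 0.54) and in both vascular clusters. In endothelial-like cells the aged values of 321 and 296 lay just below the young values of 402 and 323. Without aged section 1 this change was -0.37 (adjusted p = 0.040).

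Picalm had a negative log2 change in 9 of 10 classes, from -0.32 in OPC-like cells to 0.01 in the Aldh1a2-Cd74-Mrc1 cluster. In oligodendrocyte-like cells it was -0.30 ± 0.18 (edgeR adjusted p = 0.36). The low values came from aged section 1, at 168, while aged section 2 held 238, the same as young section 1.

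**Figure D5:**
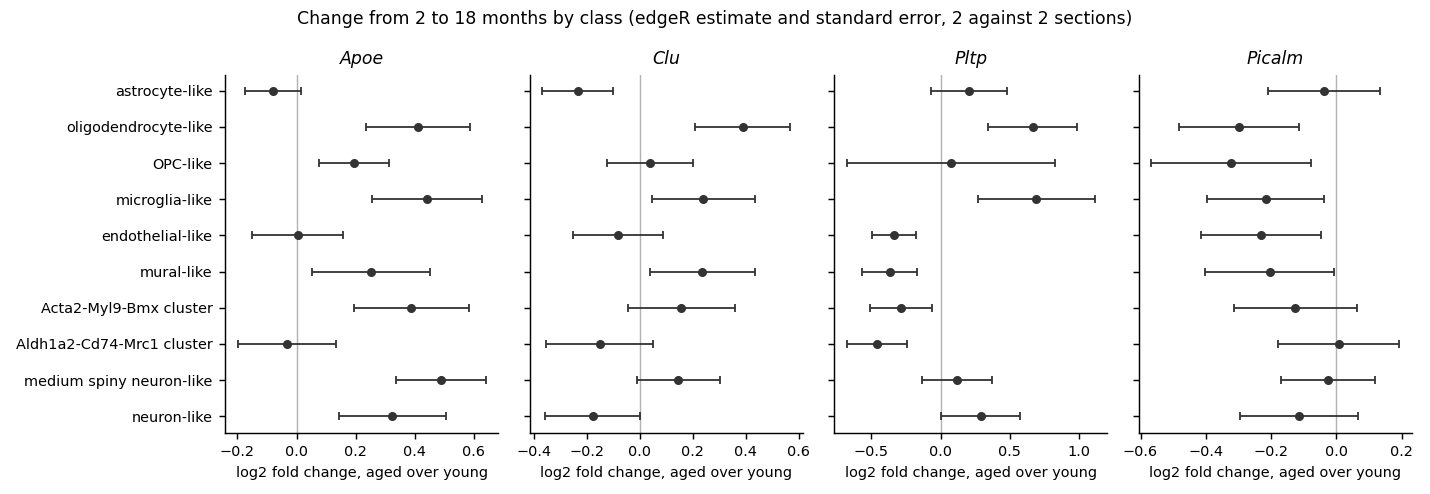
Log2 fold change from 2 to 18 months of each member in 10 classes, as the edgeR estimate (point) with its standard error (bar), from 2 young and 2 aged sections. None of the 40 changes passed the threshold, and the Apoe estimates lie above 0 in 8 of 10 classes.

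Within class and zone pairs, 4 of the 162 tests of a member passed, 3 higher and 1 lower in the aged sections, while 1.12% of all 10131 gene and pair tests passed. Pltp fell under the filter on low counts in the 6 pairs not tested. In microglia-like cells of the dorsal striatum Apoe stood at 66.3 and 79.0 transcripts per 10000 in the young and 131 and 121 in the aged sections (log2 change 0.70 ± 0.22, edgeR adjusted p = 0.047, 3.95% of 152 genes called). The astrocyte markers there stood at 51.9, 66.3, 79.9 and 93.3. The change was 0.85 (adjusted p = 0.026) in cells over 30 µm from an astrocyte-like cell and 1.01 (adjusted p = 0.022) in cells without any astrocyte marker transcript. It did not pass by DESeq2 (0.68, adjusted p = 0.22), with no filter on low counts (0.61, adjusted p = 0.24) or when any one of the 4 sections was left out (adjusted p from 0.20 to 0.55).

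In oligodendrocyte-like cells of the tissue margin Apoe stood at 33.7 and 44.9 in the young and 100 and 105 in the aged sections, from 56 to 104 cells each (log2 change 1.39 ± 0.23, edgeR adjusted p = 0.039, 3.88% of 103 genes called). The astrocyte markers there stood at 62.5, 82.7, 161 and 123. The call was lost with mixed cells kept (0.77, adjusted p = 0.25) and without young section 1 (1.17, adjusted p = 0.21), aged section 1 (1.42, adjusted p = 0.071) or aged section 2 (1.35, adjusted p = 0.33).

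Clu in oligodendrocyte-like cells of white matter stood at 54.3 and 43.2 in the young and 83.6 and 75.5 in the aged sections (log2 change 0.65 ± 0.19, edgeR adjusted p = 0.048, 6.42% of 358 genes called). The call was lost in 6 of 10 alternatives, among them without young section 1 (0.77, adjusted p = 0.34), without young section 2 (0.55, adjusted p = 0.43), with mixed cells kept (0.44, adjusted p = 0.26) and in cells over 30 µm from an astrocyte-like cell (0.67, adjusted p = 0.064). Clu in astrocyte-like cells of grey matter outside the striatum stood at 661, 493, 455 and 455, and its fall by 0.37 on the log2 scale passed narrowly (adjusted p = 0.0498, 1.16% of 344 genes called). It lost the call in 8 of 9 alternatives, and without young section 1 it was -0.10 (adjusted p = 0.998).

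Oligodendrocyte-like cells of white matter were the 1 place where the change of a member with age itself passed a test of the difference between zones. The change of Clu from 2 to 18 months was larger in white matter than in the striatum by 0.62 ± 0.12 on the log2 scale (edgeR interaction, adjusted p = 0.0071). It was the 1 call among 31 tests of a member, in a fit that called 7.83% of 345 genes, while the other interaction fits called 0.172% of their tests. The difference was 0.51 (adjusted p = 0.039) in cells over 30 µm from an astrocyte-like cell and 0.60 (adjusted p = 0.023) in cells with no astrocyte marker transcript. It did not pass by DESeq2 (0.45, adjusted p = 0.14), with plain totals (0.35, adjusted p = 0.13), with mixed cells kept (0.37, adjusted p = 0.16), without young section 1 (0.51, adjusted p = 0.28) or without young section 2 (0.73, adjusted p = 0.12). The area outlined as white matter was 1.31 and 1.61 mm² in the young and 2.46 and 2.31 mm² in the aged sections, and its part in this result was not tested.

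Over whole zones, with mixed cells included and no use of rebuilt classes beyond the outline, 0 of 32 tests of a member passed by edgeR, against 0.817% of 3060 gene and zone tests. DESeq2 also called 0, and 4 of the 32 had an unadjusted p under 0.05, all for Apoe. In the striatum Apoe stood at 83.1 and 91.3 in the young and 123 and 111 in the aged sections (log2 change 0.46 ± 0.15, adjusted p = 0.72), while per 1000 µm³ of cell volume it stood at 5.99, 5.33, 4.94 and 5.98, with overlap. Over the whole section it stood, per 10000 transcripts, at 93.7, 93.2, 119 and 111 (0.34 ± 0.15, adjusted p = 0.53). In a sum over a zone, more cells of one type and more transcripts per cell cannot be told apart. In white matter the changes were 0.27 for Apoe (adjusted p = 0.57), 0.39 for Clu (adjusted p = 0.38), -0.19 for Pltp (adjusted p = 0.70) and -0.23 for Picalm (adjusted p = 0.70).

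Few other genes of lipid handling on the panel changed with age. Of 7 such genes (Fabp7, Plin3, Abcg2, Abcb1a, Plpp3, Gpcpd1 and Thrsp), 0 of 66 tests by class were higher and 1 was lower in aged sections, a share near the 1.32% of all gene and class pairs, and the list's median log2 change by class ran from -0.28 to 0.04. That was Abcg2, an efflux transporter, in oligodendrocyte-like cells, at 6.87 and 5.07 transcripts per 10000 in the young and 2.19 and 1.98 in the aged sections (log2 change -1.61 ± 0.30, edgeR adjusted p = 8.8e-05). This call by class was lost when any one section was left out. Within class and zone pairs 0 of 221 tests of these 7 genes were higher and 6 were lower, beside 1.12% of all such tests. The 6 calls were of Abcg2, Fabp7 and Plpp3. Among them, Abcg2 in oligodendrocyte-like cells of white matter (log2 change -1.87, edgeR adjusted p = 0.0015) kept the call in 8 of 10 alternatives. Fabp7, a fatty acid carrier of glial progenitors, fell by 1.60 on the log2 scale over all cells of white matter, from 2.45 and 3.12 to 0.805 and 1.01 (adjusted p = 0.0069). Without aged section 1 its change was -1.45 (adjusted p = 0.13).

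Of 6 genes for receptors, partners and processing (Trem2, Tyrobp, Dab2, Ncstn, A2m and Ctsd), 0 of 52 tests by class were higher and 1 was lower, again beside 1.32% of all pairs. Trem2, a microglial receptor that binds lipids and apolipoproteins, stood at 73.7 and 56.0 in the young and 33.7 and 40.04 in the aged microglia-like cells (log2 change -0.99 ± 0.20, edgeR adjusted p = 0.00011). It did not pass in 6 of 16 alternatives, among them with mixed cells kept (-0.58, adjusted p = 0.12) and without young section 1 (-0.77, adjusted p = 0.29). Between zones, 5 tests of the first list were higher and 6 lower of 40, and 2 of the second were higher and 2 lower of 29, in fits that called from 2.62% to 55.4% of all genes. Among astrocyte-like cells, white matter held less Plpp3, a lipid phosphatase (log2 difference -0.57, adjusted p = 0.00079), and more A2m, a secreted protease inhibitor that binds a lipoprotein receptor (1.17, adjusted p = 0.040), than the striatum. The A2m call was lost in 4 of 9 alternatives, with adjusted p up to 0.15.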

How the data were processed

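MERFISH data of 4 coronal sections, 2 per age, were used. The authors imaged the probes on a Vizgen instrument and decoded transcripts and segmented cells with MERLIN. The deposited values are whole counts of transcripts per cell and gene, with no normalization, beside other values, the volume in µm³ and the position of each cell. A table of mean counts by the authors was not used. Sections were grouped by title and age label, while labels inside the young files carry other section numbers. No annotation of cells was used, so classes were rebuilt.

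Cells with fewer than 10 genes or under 50 µm³ were left out (study methods). Counts per 10000 were logged, scaled and clustered (15 principal components, 20 neighbours, Louvain at 0.08, igraph 0.11.9) without the 4 members and 13 genes of the lists. The astrocyte-like, microglia-like and vascular clusters were clustered again at 0.2. Clusters were named by marker lists (at least 3 markers at 1.5-fold). Rules under which 2 vascular clusters stayed unnamed, and a cluster mostly of 1 section was left out, were set after the data were seen. Cells with at least 3 markers of their own and 3 of another lineage were mixed and left out. That share rose with depth. No doublet caller was run, and transcripts of thin processes of neighbouring cells can be counted in a segmented cell.

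Zones were set on squares of 50 µm: tissue margin within 100 µm of the edge, ventricle wall within 75 µm of at least 3 ependymal-like cells, white matter at 50% oligodendrocyte-like cells within 75 µm, and striatum at 40% medium spiny neuron-like cells within 150 µm, parted at its middle. The planned rule for the ventricle wall, by 2 ependymal markers per cell, gave between 0.305 and 6.22 mm² and was replaced by the cluster.

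Counts were summed per class and section, with at least 200 cells per class or 50 per class and zone, and tested with edgeR 4.0.16 (TMM, filterByExpr, quasi-likelihood, Benjamini-Hochberg over all genes of a fit, threshold 0.05) in R 4.3.3. DESeq2 1.42.0, limma 3.58.1, other scalings, filters, outlines and left-out sections were alternatives, and the fits were tested on simulated data. There the age fits of astrocyte-like, oligodendrocyte-like and microglia-like cells called 22.4%, 22.6% and 17.6% of genes set to change 1.5-fold. Of genes set to change 1.25-fold they called 10%, 3.17% and 0%, so most changes of that size would be missed. Cells were not treated as replicates, and p-values measure the spread between these sections only. Named genes are the 4 members and the genes of the 2 lists. Members and lists were chosen with earlier results of these data known, and the alternatives on distance to astrocytes and crossed pairs were added after seeing the data.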

Additional observations from a re-analysis of the deposited data

Results flagged for a closer look

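The change with age differed between white matter and striatum in oligodendrocyte-like cells for 3 of the genes followed here, by an edgeR interaction test with the section as a block. The difference on the log2 scale was 0.62 for Clu (adjusted p = 0.0071), 0.43 for Plin3, which coats lipid droplets (adjusted p = 0.026), and 0.51 for Ctsd, the lysosomal protease cathepsin D (adjusted p = 0.043). In that fit 7.83% of 345 genes passed. All 3 lost the call by DESeq2, with plain totals, with mixed cells kept and without either young section. Ctsd also lost it without aged section 1 (0.40, adjusted p = 0.12) and in cells with no astrocyte marker transcript (0.46, adjusted p = 0.073).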

How the results depend on the processing

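By class, 1 member passed with plain totals (Apoe in microglia-like cells, log2 change 0.62, adjusted p = 0.014) and 1 with mixed cells kept (Pltp in the Aldh1a2-Cd74-Mrc1 cluster), against 0 by edgeR as reported. Over all genes, 45 of 3332 tests passed with plain totals and 46 of 3799 with mixed cells kept, against 44 of 3332 as reported. By class and zone the count of 4 became 2 by DESeq2, 2 with no filter, 1 with mixed cells kept, 1 over 30 µm from astrocytes, and 0 to 9 with a section left out, 0 without young section 1 and 9 without young section 2. Between zones the count of 8 became 15 with mixed cells kept, 4 over 30 µm from astrocytes and 2 in cells without astrocyte markers, where fewer pairs could be tested. Shares over all genes are not given for the alternatives by zone, so these moves are not read as particular to the members. The interaction count of 1 became 0 by DESeq2, with plain totals and with mixed cells kept, and 0 to 1 with a section left out. Over whole zones it was 0 in every alternative run. With mixed cells kept the level ratios, as means over sections, were 5.67 for Clu (10.2), 1.71 for endothelial-like to mural-like Pltp (2.60) and 3.25 for oligodendrocyte-like to astrocyte-like Picalm (4.70). Of 876 alternative values of members that were not called, 61 changed sign, 35 by class and 26 over whole zones. These included Clu in astrocyte-like cells without young section 1 (0.00071, against -0.46 without young section 2), Picalm in microglia-like cells with mixed cells kept (0.0171) and Picalm over white matter without aged section 1 (0.0279). Called members gave 128 alternative values, of which 93 kept the call and none changed sign.

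The replicate numbers were not shown to pair the sections: same-numbered sections deviated with a correlation of -0.27. With the replicate number as a block 0 members passed by class, and 36 genes against 44. With the crossed pairing, chosen after seeing the data, 25 genes and 0 members passed. With that replicate block the adjusted p was 0.081 for Trem2 in microglia-like cells and 0.18 for Fabp7 over white matter.

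With cell volume as the offset, the median of all genes shifted by -0.47 to -0.19 by class and -0.66 to -0.45 by zone. Changes of sign under this offset were counted relative to that median. The Apoe changes per cell volume are given both before and after it was taken off. Having 2 sections per age and low Pltp counts outside vessels limits precision.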

Other observations

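Microglia-like cells of white matter were too few for a test once mixed cells were left out. With mixed cells kept, from 91 to 181 cells per section, they held 102 and 88.4 transcripts of Apoe per 10000 in the young and 183 and 162 in the aged sections, and 130, 74.3, 161 and 135 of Clu. Both aged values lay above both young ones for each gene, and the 6 astrocyte markers stood at 197, 144, 210 and 161 in the same cells. Over all microglia-like cells, with mixed cells left out, the ages did not overlap for 50.2% of the 315 genes tested. Both aged values were the higher ones for 114 of the 315. No such share was taken for the white matter cells with mixed cells kept.

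Apoe in astrocyte-like cells was higher in the striatum, at 663, 721, 737 and 740, than in grey matter outside it, at 542, 519, 464 and 513, without overlap. Clu in the same cells stood at 760, 601, 577 and 601 in the striatum and at 661, 493, 455 and 455 outside it. Endothelial-like cells also held more Apoe in the striatum, at 221, 214, 285 and 248, than outside it, at 162, 157, 174 and 151. These differences were not tested.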
